A study of Mus musculus with 16 samples.

Results

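Differentially methylated regions near developmental transcription factor genes of the mouse kidney were taken from the authors' deposited table, which lists 86510 regions. Members were the autosomal regions annotated to a gene of the Hox, Pax, Sox, Fox, Lhx, Irx, Tbx, Gata, Nkx or Tfap2 family. The family of Six2 and its relatives was included too, and all annotation classes were kept. There were 981 such regions at 157 gene symbols, out of 82057 autosomal regions, and 14 of the symbols were noncoding transcripts such as Lhx1os and Hoxaas3. Every region of the table, member or not, is there because it was called as differing between the sides. Beyond that, no measured value was used to choose the members. The kidneys came from wild type C57BL/6 mice and from Gulo-/- C57BL/6 mice. Gulo encodes the last enzyme of vitamin C synthesis, so Gulo-/- mice depend on vitamin C from the diet. Whole-genome bisulfite sequencing, which reads cytosine methylation across the genome, was labelled as 2 samples per genotype, and the diet, age and sex of the animals are not given in the sources used here. Per the labels, kidneys were chopped and mixed and then shared out over 3 kinds of assay, so each sample is a mixture of all kidney cell types.

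The table gives 1 mean methylation level, from 0 to 1, for each side of the comparison. It does not say which side is which genotype, and it gives no value per sample, no read coverage and no error. Levels are therefore given by side, as side 1 and side 2, and no difference below could be set against the spread between replicates or tested. The same levels also average over cells, so a difference in the mix of cell types and a difference within a cell type cannot be told apart.

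These families hold the factors that lay out the body plan and the organs. Hox genes set position along the body axis, Pax2, Pax8, Lhx1, Six2 and Gata3 act in kidney formation, and Fox, Sox, Tbx, Irx, Nkx and Tfap2 genes act in many organs. Most of their promoters lie in CpG islands, stretches dense in the CpG dinucleotide that is the usual target of methylation in mammals. Such islands are mostly unmethylated, and at silent developmental genes they are typically held by Polycomb complexes.

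Where a region reached the bases just before a transcription start, its sequence could be read from RefSeq promoter windows of build GRCm38.p6, each running from 250 bases before the start to 50 bases after it. The first set shows the CpG-dense end of these promoters. Each line is the stretch of the bases before the start that the region covered, on the strand of the gene, 5′ to 3′, and the capitals mark CpG sites.
Hoxa10: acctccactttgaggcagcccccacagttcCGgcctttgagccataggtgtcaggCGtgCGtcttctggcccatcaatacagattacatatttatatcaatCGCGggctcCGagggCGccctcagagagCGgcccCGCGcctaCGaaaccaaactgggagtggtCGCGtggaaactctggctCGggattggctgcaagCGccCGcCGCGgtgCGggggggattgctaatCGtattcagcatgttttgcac
Sox14: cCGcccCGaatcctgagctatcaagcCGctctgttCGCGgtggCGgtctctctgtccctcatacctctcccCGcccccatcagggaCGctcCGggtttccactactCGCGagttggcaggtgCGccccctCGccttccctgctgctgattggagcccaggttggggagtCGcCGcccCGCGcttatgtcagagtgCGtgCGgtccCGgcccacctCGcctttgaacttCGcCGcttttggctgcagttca
Sox2: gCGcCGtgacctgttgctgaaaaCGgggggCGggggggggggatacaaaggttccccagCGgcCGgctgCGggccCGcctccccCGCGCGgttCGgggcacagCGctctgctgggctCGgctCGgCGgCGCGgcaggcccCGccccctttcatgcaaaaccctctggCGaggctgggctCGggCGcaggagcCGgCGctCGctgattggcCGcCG
Gata2: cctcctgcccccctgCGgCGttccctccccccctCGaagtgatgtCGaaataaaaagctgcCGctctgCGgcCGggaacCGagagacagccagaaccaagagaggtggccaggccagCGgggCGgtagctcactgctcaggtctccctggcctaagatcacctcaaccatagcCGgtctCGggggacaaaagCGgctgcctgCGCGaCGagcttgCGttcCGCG
Foxc1: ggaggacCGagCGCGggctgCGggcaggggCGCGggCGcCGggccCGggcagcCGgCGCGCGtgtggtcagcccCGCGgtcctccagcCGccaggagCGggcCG
The Hoxa10 stretch lies at chr6:52234940-52235189 on the minus strand and holds 20 CpGs in 250 bases. Sox14 lies at chr9:99876171-99876420 on the minus strand and holds 23 CpGs in 250 bases. Sox2, at chr3:34649745-34649959 on the plus strand, holds 27 CpGs in 215 bases. Gata2, at chr6:88193641-88193864 on the plus strand, holds 19 in 224 bases, and Foxc1, at chr13:31806396-31806499 on the plus strand, holds 18 in 104 bases. All 5 promoters were low in methylation on both sides and higher on side 2 in the authors' deposited table. The levels on side 1 and side 2 were 0.146 and 0.290 for the Hoxa10 region, 0.0853 and 0.317 for Sox14, and 0.135 and 0.317 for Sox2. They were 0.128 and 0.266 for Gata2 and 0.0827 and 0.165 for Foxc1.

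The second set is shown because CpGs are sparse in it, or because its direction is the opposite one.
Hoxd4: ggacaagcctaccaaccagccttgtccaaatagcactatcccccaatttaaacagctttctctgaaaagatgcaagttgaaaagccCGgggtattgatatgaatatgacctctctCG
Hoxd8: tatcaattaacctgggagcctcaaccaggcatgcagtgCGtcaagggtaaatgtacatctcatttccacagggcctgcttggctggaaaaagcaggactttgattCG
Hoxa9: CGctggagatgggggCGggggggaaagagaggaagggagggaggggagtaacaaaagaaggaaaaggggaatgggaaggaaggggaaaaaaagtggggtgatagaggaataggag
Hoxd4 (chr2:74721728-74721844, plus strand) has 2 CpGs in 117 bases, and Hoxd8 (chr2:74704365-74704471, plus strand) has 2 in 107 bases. Their regions were at 0.355 and 0.574 for Hoxd4 and at 0.136 and 0.282 for Hoxd8, on side 1 and side 2. The Hoxa9 stretch (chr6:52227371-52227485, minus strand) has 2 CpGs in 115 bases. Its region, of 16 CpGs in all, was at 0.291 on side 1 and 0.145 on side 2.

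Hoxa9 was the single exception among these windows. RefSeq gave 149 windows at 125 family symbols, and regions overlapped 28 of them (18.8%), where 10.3% of all 31396 windows were overlapped. Of the 28 regions, 27 were higher on side 2. Over all windows the count was 2240 of 2779 regions. Family windows held a median of 17 CpGs and all windows a median of 7.

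Across all 981 regions, methylation was more often higher on side 2. Of them 603 were higher on side 2 and 378 on side 1 (38.5%), and 44.9% of all autosomal regions were higher on side 1. The median level was 0.572 on side 1 and 0.625 on side 2, against 0.697 and 0.710 over all autosomal regions. The regions near these genes were thus less methylated on both sides. The size of the differences was close to that elsewhere, with a median absolute difference of 0.184 against 0.192. It ran from 0.00555 to 0.477, and 371 regions (37.8%) differed by at least 0.2, where 43.5% of all autosomal regions did. Member regions had a median of 7 CpGs and 242 bases, against 6 CpGs and 248 bases over all autosomal regions.

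Promoters carried the most one-sided pattern. Of 115 promoter regions 106 were higher on side 2 and 9 on side 1 (7.83%), where 21.2% of all 7330 autosomal promoter regions were higher on side 1. Their median level was 0.151 on side 1 and 0.290 on side 2, and 0.215 and 0.327 over all promoter regions. Promoters here are what the table calls so, from 1499 bases before to 500 bases after an annotated start. The 9 exceptions included regions at Foxd3, Foxo3, Hoxa9, Hoxaas2, Hoxb3, Pax1, Sox18 and Tbx18, named for their direction after their values were seen. Of these 8 all but Sox18 and Hoxaas2 were below 0.32 on both sides.

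**Figure D1:**
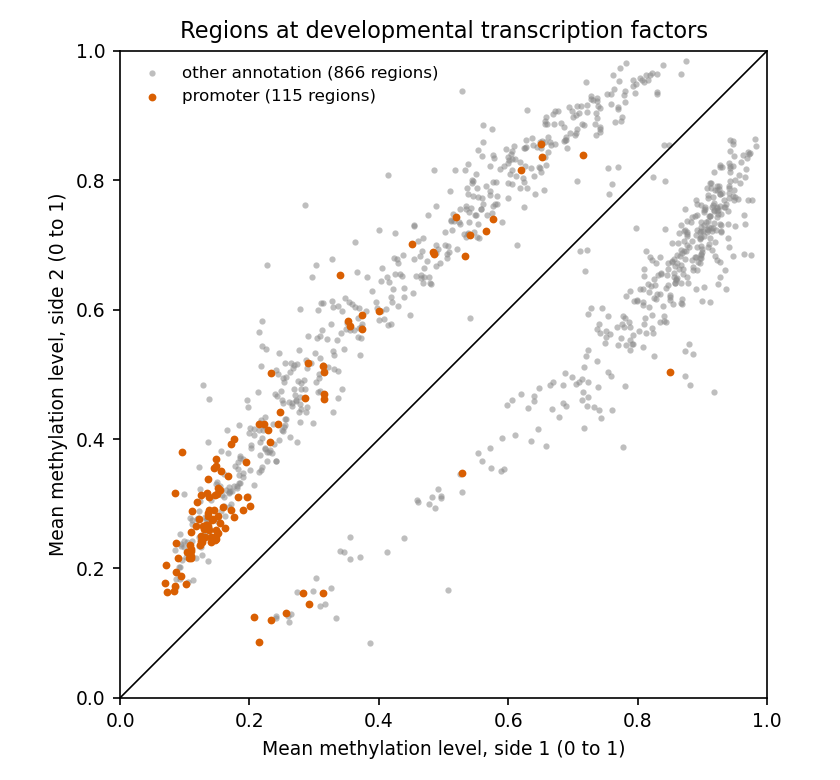
Mean methylation level of each of the 981 regions on side 1 (horizontal axis) and side 2 (vertical axis), from 0 to 1, with promoter regions in orange and the diagonal in black. Most of the 115 promoter regions crowd in the lower left corner above the diagonal, and 9 lie below it.

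Away from promoters the directions were more balanced. Distal intergenic regions, the largest class with 489 members, split into 247 higher on side 1 and 242 higher on side 2 (50.5% on side 1, where all distal intergenic regions had 57.2%). In first introns 27 of 103 regions (26.2%) were higher on side 1, in later introns 63 of 159 (39.6%) and in exons 20 of 68 (29.4%). The shares over all autosomal regions of these 3 classes were 30.7%, 44.8% and 38.03%. Within 1 kb of an annotated start 12 of 134 regions (8.96%) were higher on side 1, where 20.6% of all autosomal regions were. Beyond 100 kb the share was 54.7%, below the 67.6% of all autosomal regions.

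The direction followed the level of methylation, and here the family regions were close to the rest of the table. Of 77 regions whose 2 sides averaged at most 0.2, 9 (11.7%) were higher on side 1. The share was 11.0% of 218 regions between 0.2 and 0.4, 25.7% of 171 between 0.4 and 0.6, 52.0% of 323 between 0.6 and 0.8, and 69.3% of 192 above 0.8. All autosomal regions gave 15.6%, 13.9%, 20.1%, 48.0% and 69.2% in the same steps. Low-methylated regions were thus mostly higher on side 2 and highly methylated ones mostly higher on side 1, at these genes as in the whole table. When the other autosomal regions were weighted to the same mix of levels as the members, 37.2% were higher on side 1, against the 38.5% seen. Weighted to the same mix of annotation classes and CpG numbers, the other regions had 43.6%.

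**Figure D2:**
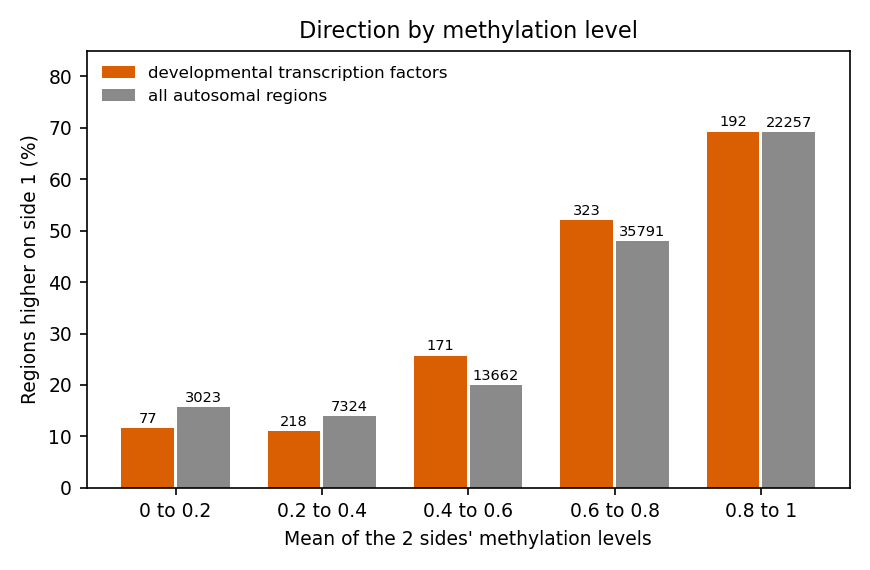
Percent of regions higher on side 1 (vertical axis) in 5 steps of the mean of the 2 sides' methylation levels (horizontal axis), for the developmental transcription factor regions (orange) and all autosomal regions (gray), with the number of regions above each bar. Both sets of bars climb from below 16% in the 2 lowest steps to 69.3% and 69.2% in the highest.

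Regions with many CpGs leaned furthest to side 2. Of 131 regions with at least 20 CpGs 15 (11.5%) were higher on side 1, against 18.4% of all such autosomal regions. The region with the most CpGs, 120, was the promoter of Nkx2-4, a homeobox gene, at chr2:147084625-147085411, with levels of 0.144 and 0.356. Sox12 had a promoter region of 103 CpGs at 0.129 and 0.261. Foxe1, a factor of thyroid formation, had 91 CpGs in its only exon at 0.149 and 0.330. Tbx1, which acts in heart and pharynx formation, had a promoter region of 88 CpGs at 0.148 and 0.369. Lhx2 had 76 CpGs over its start at 0.214 and 0.423, and Six5 had 23 CpGs at 0.147 and 0.314. In each of these 6 regions side 2 was the higher one and neither side passed 0.5. Pax1, which acts in vertebral column formation, differed from them, with 37 promoter CpGs at 0.314 on side 1 and 0.163 on side 2.

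The Hox genes were the most one-sided family by count. They had 99 regions at 33 symbols, of which 79 were higher on side 2 and 20 on side 1 (20.2%), with medians of 0.278 on side 1 and 0.422 on side 2. Other regions weighted to the same mix of levels had 22.5% higher on side 1, and those weighted to the same mix of classes and CpG numbers had 30.7%. The 4 Hox clusters pointed the same way: 18 of 25 regions were higher on side 2 in cluster A, 18 of 22 in B, 24 of 30 in C and 19 of 22 in D. In promoters the counts were 11 of 13 in A, 5 of 6 in B, 3 of 3 in C and 11 of 11 in D. Regions of 1 cluster are neighbours on the chromosome and are not independent observations.

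Single Hox regions show the range. In cluster D, the Hoxd9 promoter at chr2:74696311-74697142, with 25 CpGs, had 0.340 on side 1 and 0.653 on side 2, the largest promoter difference of the Hox family. Hoxd13, the last gene of that cluster and a limb and genital tract factor, had 0.278 and 0.6004 over 4 CpGs classed as 3′ UTR. In cluster C the region with the most CpGs, 91, began 171 bases downstream of the Hoxc13 start, at 0.151 and 0.325. Hoxc13 is known for its part in hair formation. A Hoxc9 intron region at 0.218 and 0.513 spanned 2097 bases, the widest of all members. The largest Hox difference in the other direction was 25973 bases from the Hoxc4 start, at chr15:103059940-103060419, with 0.507 on side 1 and 0.167 on side 2 over 15 CpGs. Of 8 regions annotated to Hoxc4, 4 were higher on each side.

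In cluster A, the regions of the noncoding transcript Hoxaas3 were mixed. One, classed as 5′ UTR, had 0.137 on side 1 and 0.462 on side 2, the largest difference of that cluster, and another, classed as 3′ UTR, had 0.573 and 0.355. Hoxaas3 is only the gene symbol given for these regions, and the UTR class comes from a transcript that the table does not name for it. In cluster B, Hoxb7, which is expressed in the ureteric bud and its collecting ducts, had 0.276 and 0.538 over 7 CpGs classed as 3′ UTR and 0.237 and 0.423 in its intron. The 4 cluster B regions higher on side 1 were the Hoxb3 promoter region and 3 distal regions of Hoxb1.

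**Figure D3:**
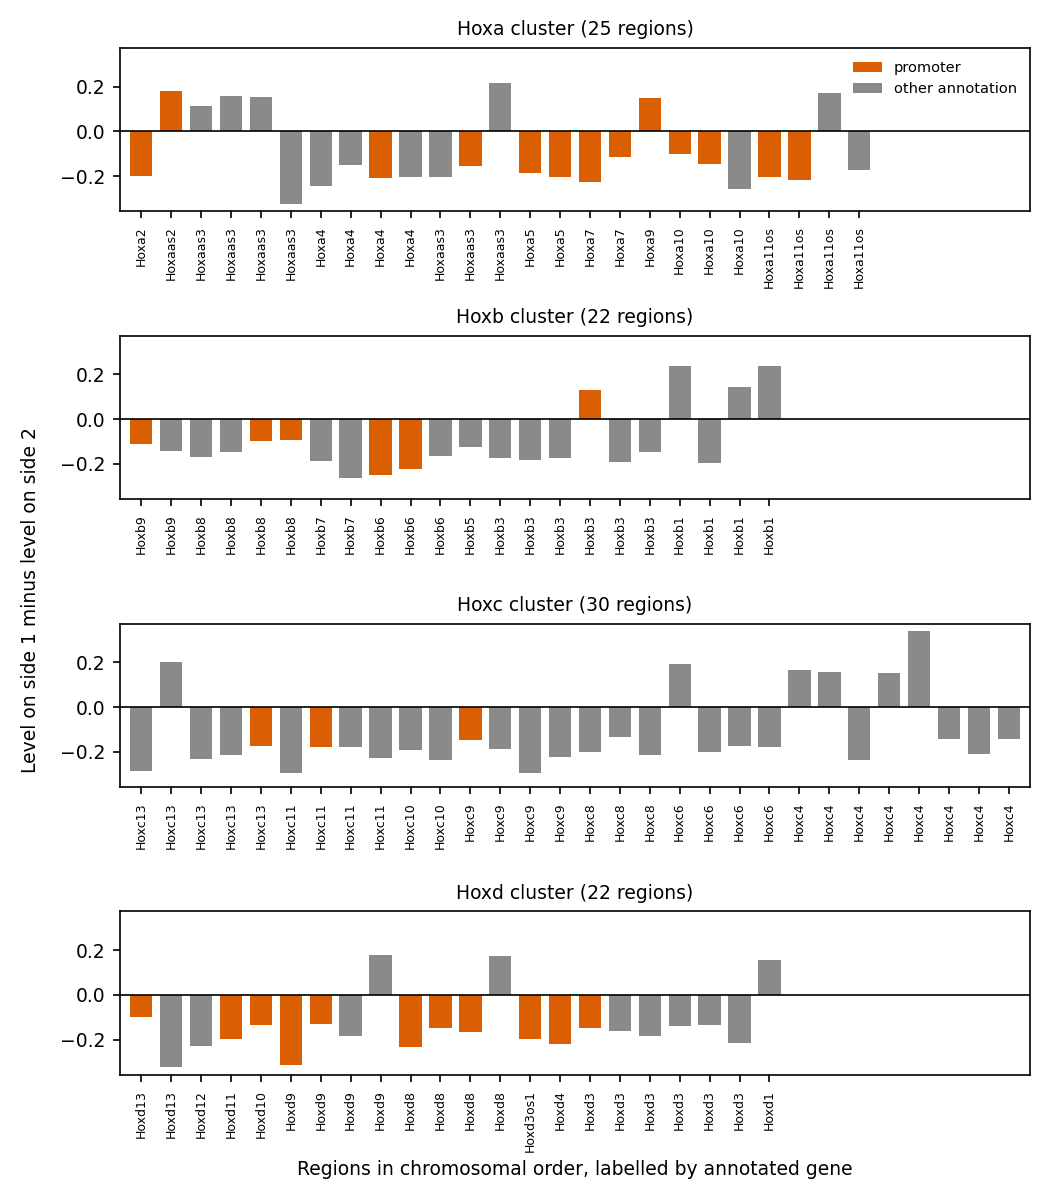
Level on side 1 minus level on side 2 (vertical axis) for the 99 Hox regions of the 4 clusters, in chromosomal order and labelled by annotated gene (horizontal axis), with promoter regions in orange and other regions in gray. Bars below 0 are regions higher on side 2, 18 of 25, 18 of 22, 24 of 30 and 19 of 22 in clusters A to D.

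The Pax genes, paired-box factors, had 52 regions, of which 34 were higher on side 2. The share higher on side 1 was 34.6%, near the 33.8% of other regions weighted to the same mix of levels. The largest difference of all members lay in Pax8, a factor of the nephron lineage that the adult tubule goes on expressing. This region, at chr2:24444292-24444665 in exon 3 of 12, had 10 CpGs and levels of 0.285 on side 1 and 0.762 on side 2. Exons 5 and 6 of Pax8 had regions at 0.627 and 0.851 and at 0.672 and 0.907. Of its 9 regions 8 were higher on side 2, and the exception was distal, at 0.723 and 0.466. Pax2, its close relative and a factor of the ureteric bud and nephron progenitors, had 10 regions with 8 higher on side 2. The largest was in intron 3 of 9, at chr19:44766391-44766962, with 0.577 and 0.835 over 10 CpGs. A region of 30 CpGs next to the Pax2 start was low on both sides, at 0.110 and 0.216. Pax7, a muscle stem cell factor, had one of the 10 largest differences toward side 1 among regions with at least 5 CpGs, at 0.386 and 0.0843 over 7 CpGs upstream of the gene.

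The Gata genes, zinc finger factors, had 33 regions, of which 21 were higher on side 2. The share higher on side 1 was 36.4%, against 32.2% of other regions weighted to the same mix of levels. All 9 regions of Gata2, which is expressed in the collecting duct and in blood stem cells, were higher on side 2. They included 3 promoter regions and a 19-CpG region in exon 3 of 6, at chr6:88200812-88201707, with 0.296 on side 1 and 0.650 on side 2. Gata3, which guides the nephric duct and marks the collecting duct, had 15 regions that split by place. The 5 regions in its own introns and exons were higher on side 2, led by 43 CpGs in intron 2 of 5 at chr2:9875727-9877216, with 0.197 and 0.450. Of its 9 distal intergenic regions 7 were higher on side 1, at 0.619 to 0.928 on that side. The remaining one, in an exon 18668 bases from the start, was at 0.685 and 0.861.

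The Irx genes, homeobox factors of nephron patterning and heart, had 81 regions with 59 higher on side 2. The share higher on side 1 was 27.2%, against 33.1% of other regions weighted to the same mix of levels. Irx3 accounted for 33 of the 81 regions, 28 higher on side 2. Of these 33, 9 lay inside introns of the neighbouring gene Fto, 143941 to 235453 bases from the Irx3 start, and 8 of the 9 were higher on side 2. In these 8, side 1 ran from 0.337 to 0.572 and side 2 from 0.463 to 0.822. Irx1 was balanced, with 13 of 24 regions higher on side 1. All 4 regions of Irx2 were higher on side 2, among them 78 CpGs in exon 2 of 5 at 0.1198 and 0.278 and a promoter region of 16 CpGs at 0.148 and 0.259.

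The Fox genes, forkhead factors, were the largest family with 315 regions, of which 108 (34.3%) were higher on side 1. Other regions weighted to the same mix of levels had 40.4%. Foxn3, a transcriptional repressor, was the most one-sided of the 8 genes with the most regions: 24 of its 25 regions were higher on side 2, with medians of 0.657 on side 1 and 0.852 on side 2. Foxo3, which acts in stress responses downstream of insulin signals, had 28 regions with 21 higher on side 2, and its intron 2 held a region at 0.228 and 0.668 over 5 CpGs. Foxp1 had the most regions of any gene, 42, of which 20 were higher on side 1, and its 1 promoter region was at 0.233 and 0.502. Foxl1 had 8 of 29 and Foxk1 11 of 24 higher on side 1. Foxd1, the factor of the renal stroma lineage, had 4 regions, all higher on side 2, the largest at 0.215 and 0.566 some 2515 bases upstream. Foxc1 and Foxc2, which act in early kidney and vessel formation, had 13 of 20 and 3 of 3 regions higher on side 2. Foxi1, the master factor of intercalated cells, had 7 regions with 4 higher on side 2, and 3 of them lay in the neighbouring gene Dock2. Foxo6 (0.220 and 0.582) and Foxj2 (0.560 and 0.886) were also among the 10 largest differences toward side 2 by the same CpG minimum, and a distal region of Foxl1 (0.936 and 0.632) was among those toward side 1.

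The Sox and Tbx families were evenly split, with 66 of 132 Sox regions and 40 of 80 Tbx regions higher on side 1. Other regions weighted to their mixes of levels had 42.0% and 39.0%. Sox5, a chondrocyte factor, had 18 of 28 regions higher on side 1, though its largest was a first-intron region at 0.328 and 0.678. Sox6, its partner, held 2 of the 10 largest differences toward side 2 among regions with at least 5 CpGs, at 0.129 and 0.483 and at 0.485 and 0.816. Sox17 and Sox18, factors of the endothelium, had 4 of 8 and 1 of 3 regions higher on side 1. The Sox18 region, 876 bases upstream with 4 CpGs, had 0.850 on side 1 and 0.504 on side 2, the largest promoter difference of the Sox family. Sox4, Sox9 and Sox11, which act in the developing nephron, had 1 of 4, 1 of 3 and 5 of 10 higher on side 1. A distal Sox2ot region had 0.761 and 0.445.

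Among Tbx genes, Tbx18, a factor of the ureter's mesenchyme, leaned to side 1 with 10 of 12 regions. Its largest difference, 233177 bases from the start and with 4 CpGs, was 0.919 on side 1 and 0.472 on side 2. Tbx2, which acts with Tbx3 in the ureter and other organs, had 8 of 9 regions higher on side 2, the largest at 0.303 and 0.669. Tbx3 had 3 of 5 higher on side 1. A distal region of Tbx4, a hindlimb and lung factor, had 0.911 and 0.612 over 10 CpGs.

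The Tfap2 family was the only one of the 11 with most regions higher on side 1, 30 of 42 (71.4%). It had no promoter region and 38 distal intergenic ones, at medians of 0.851 on side 1 and 0.701 on side 2. Other regions weighted to the same mix of levels had 50.9%, and those weighted to the same mix of classes and CpG numbers had 56.5%. All 8 regions of Tfap2b, a factor of the distal nephron, were higher on side 1. Its side 1 levels ran from 0.309 to 0.943 and its side 2 levels from 0.142 to 0.845. Of the 8, 7 were distal intergenic, as far as 554620 bases from the start. Tfap2b was the only family gene with at least 3 regions whose regions all pointed to side 1. Among the 112 family genes with at least 3 regions 23 had all regions higher on side 2 and 88 had both directions. The same count was not made for genes outside the families, so it cannot be read as a trait of them. Tfap2a had 7 of 11 regions higher on side 1, and a distal region of Tfap2c, with 0.872 and 0.497, had one of the 10 largest differences toward side 1 among regions with at least 5 CpGs.

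**Figure D4:**
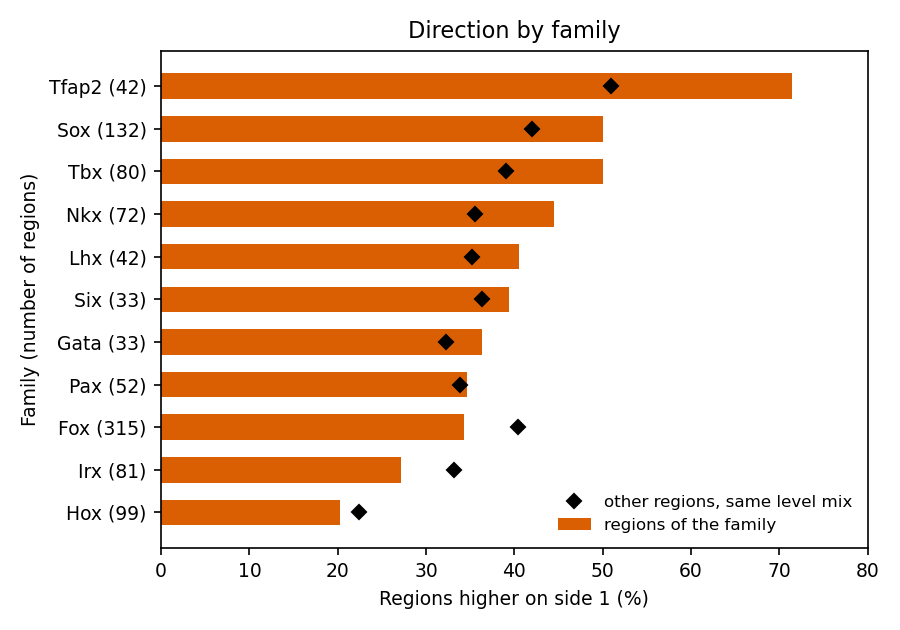
Percent of regions higher on side 1 (horizontal axis) for the 11 families, with the number of regions in parentheses; diamonds give the percent for other autosomal regions weighted to the same mix of methylation levels. Hox stands lowest at 20.2% and Tfap2 highest at 71.4%, with diamonds at 22.5% and 50.9%.

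The Lhx and Nkx families and that of Six2, all homeobox genes, lay between these. Of 42 Lhx regions 17 (40.5%) were higher on side 1, of 33 at Six2 and its relatives 13 (39.4%) and of 72 Nkx regions 32 (44.4%). The level-weighted shares of other regions were 35.2%, 36.4% and 35.5% in the same order. Lhx1, which is needed for the nephric duct and nephron, had 1 region, in exon 2 of 5, at 0.262 and 0.404. Six2, the factor of the nephron progenitor pool, had 6 of 10 regions higher on side 2.

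Regions on chromosome 14, which also carries Gulo, leaned to side 1. All 24 members of that chromosome were within 10 Mb of Gulo, and Gata4, Sox7 and Nkx2-6 held 17 of them. Of the 24, 17 (70.8%) were higher on side 1, against 37.7% of the members elsewhere. All regions within 10 Mb of Gulo leaned the same way, with 716 of 1192 (60.1%) higher on side 1. Over all 4402 regions of chromosome 14 the share was 57.8%, and over the other autosomes 44.2%. The share near Gulo was thus close to that of the whole chromosome. The 24 members had median levels of 0.739 on side 1 and 0.539 on side 2, and no level-weighted share was computed for them. Nkx2-6, a homeobox gene, had 5 of 7 higher on side 1, the largest at 0.886 and 0.531, while its promoter region went the other way at 0.0872 and 0.240. Gata4, a heart and gonad factor, had 4 of 6 and Sox7, an endothelial factor, 2 of 4 higher on side 1.

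**Figure D5:**
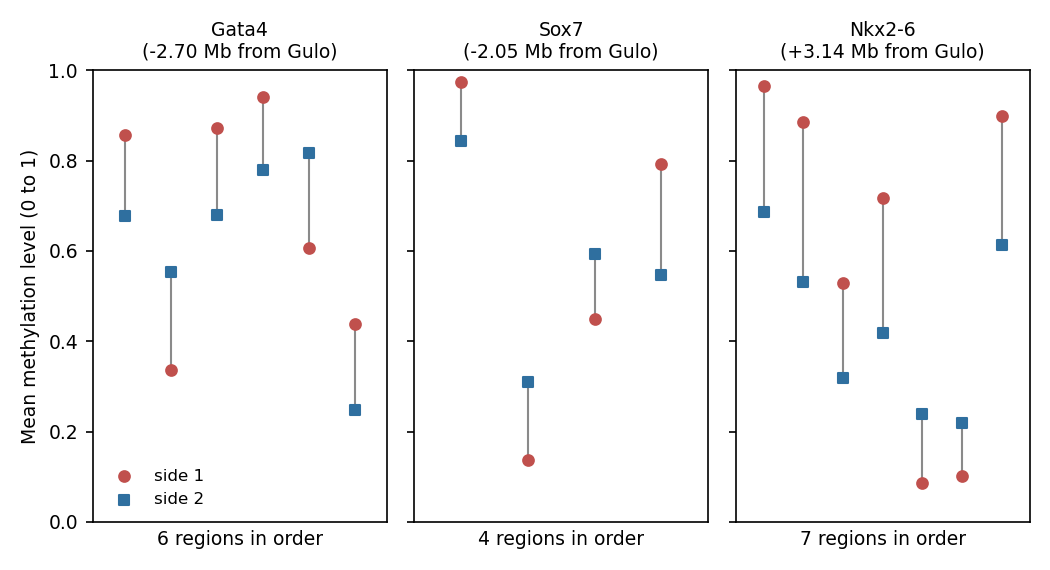
Mean methylation level (vertical axis, 0 to 1) on side 1 (circles) and side 2 (squares) of the 17 regions at Gata4, Sox7 and Nkx2-6 on chromosome 14, in chromosomal order, with the mean distance of each gene's regions from Gulo in megabases above. Circles lie above squares in 11 of the 17 regions, including 5 of 7 at Nkx2-6.

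A list of 30 family genes with known parts in kidney formation or kidney cell types was looked at as a group. Of these 29 had a region and Hoxa11 had none. Their 230 regions were higher on side 1 in 84 cases (36.5%), near the share of all members. All regions were higher on side 2 at 10 of the 29 genes. Of all member symbols 32.5% had no region higher on side 1, and of all autosomal symbols 29.0%. The 10 genes included Foxd2 and the posterior Hox genes Hoxa10, Hoxc10, Hoxd10 and Hoxd11. Lhx1, Hoxd10 and Hoxd11 had only 1 region each. The region with the largest difference was higher on side 2 in 24 of the 29 genes. It was higher on side 2 in 109 of all 157 member symbols (69.4%), and in 60.6% of all autosomal symbols with a region. It was higher on side 1 in Foxi1, Sox11, Sox18, Tbx18 and Tfap2b.

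Regions were found at more of the family genes than of other genes. Of 163 autosomal protein-coding family genes in RefSeq 143 (87.7%) had at least 1 region, and 70.7% of all 20661 such genes did. The 20 without one included Gata6, Hoxa11, Hoxa13, Nkx2-2 and Six6. This holds by annotated symbol only: 4 regions were annotated to Hoxa11os, and 2 regions annotated to Nkx2-2os lay inside Nkx2-2, both higher on side 2. The symbol of a region need not be that of the gene it lies in, and at least 59 members lay inside an intron or exon of another gene. Members whose intron or exon had no named gene were not counted among these.

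Other gene groups gave a scale for these counts. Solute carrier genes, which encode transporters, had 36.3% of 1488 regions higher on side 1, and their same-level weighting gave 44.6%. Chemosensory receptor genes, silent in most tissues, had 86.8% of 1035 regions higher on side 1, with a level-weighted share of 51.9%. Developmental transcription factors outside the 11 families had 47.6% of 576, above their level-weighted 38.8%. Other genes of kidney development, such as signals and further factors, had 88 of 275 regions (32.0%) higher on side 1. The counts were 0 of 4 for Wt1, 0 of 8 for Hnf4a, 5 of 26 for Bmp7 and 5 of 35 for Mecom. Genes leaning to side 1 included Sall1 with 13 of 22, Esrrb with 12 of 19, Dach1 with 7 of 12 and Tcf21 with 7 of 7. Of genes that encode Polycomb and related chromatin proteins, 19 of 23 had regions and 14 of 78 regions (17.9%) were higher on side 1. The Suz12 promoter region, of 38 CpGs, was at 0.137 and 0.324, and Jarid2, which recruits the complex, had 3 of 18 regions higher on side 1. Cbx2, Mtf2 and Pcgf6, with 1, 2 and 2 regions, had all of them higher on side 1. No level-weighted share was computed for the kidney development and Polycomb groups.

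Single-cell RNA libraries of the same study, 2 per genotype, served to say which of these genes the kidney expresses. Unique molecular identifiers (UMIs) were summed over all barcodes of a library, giving totals from 10073836 to 88925323, and are given as CPM, which scales every library to the same total, for wild type replicates 1 and 2 and Gulo-/- replicates 1 and 2 in that order. Wild type replicates 1 and 2, with 2090 and 11829 barcodes, shared 986, while the other pairs shared 9 to 282, so these 2 libraries may not be independent. Gulo itself had 0, 2, 0 and 2 UMIs, too few to check the genotypes. The proximal tubule transporter Slc34a1 stood at 1363, 1335, 917 and 361 CPM and the principal cell channel Aqp2 at 48.8, 156, 1506 and 3053, so the libraries differed in their mix of cells. The podocyte marker Nphs1 was at or below 0.922 CPM in every library. Whether the mix also differed between the bisulfite samples was not tested.

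Of the 157 symbols 22 had at least 10 CPM in every library, and 86 were detected but below 10 CPM in at least 1. Another 42 had 0 UMIs in all libraries and 7 were not in the matrices. The 86 are not all genes of low expression, since the libraries differed in their mix of cells. They include Tfap2b at 8.62, 11.3, 25.3 and 92.5 CPM and Gata3 at 2.84, 6.81, 39.8 and 56.8. The 216 regions of the 22 genes expressed in every library were higher on side 1 in 24.1%. The share was 40.7% for the 540 regions of the 86 genes and 44.7% for the 188 of the 42 undetected genes. Other regions weighted to the same mix of levels had 38.3%, 36.5% and 37.2%. The genes expressed in every library thus leaned further to side 2 than regions of the same level elsewhere, a difference that was not tested. No share weighted to the same mix of annotation classes and CpG numbers was computed for these groups. Without Foxn3 and Irx3, which hold 58 of the 216 regions, the share was 29.1%, and its level-weighted counterpart was 37.3%. Without wild type replicate 1 or without wild type replicate 2, which share barcodes, the share was 26.7% or 25.1% at 24 expressed genes, and 44.7% or 44.5% at undetected ones. Promoter regions did not separate the groups: 2 of 25 were higher on side 1 in expressed genes and 3 of 23 in undetected ones.

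Among the expressed genes, Hoxa7 was at 61.2, 71.1, 37.8 and 57.1 CPM and its 2 promoter regions were higher on side 2. Hoxd8 was at 22.04, 26.2, 120 and 239 CPM, with 3 promoter regions higher on side 2 and an exon region at 0.482 and 0.310. Hoxd8 levels followed the order of Aqp2 over the libraries, and the authors' deposited table of markers lists it in the clusters named LOH, DCT1, DCT2, CD-PC and CD-IC1. Pax8 was at 18.4, 19.9, 38.1 and 48.8 CPM and Foxn3 at 22.3, 21.0, 16.4 and 35.5. At the other end, Sox14 and Six2 had 0 UMIs in all 4 libraries, which allows up to 0.0337 to 0.298 CPM (3 UMIs of a library's total, counting error only). Hoxa9, the exception among the promoter windows, was expressed at 28.3, 35.9, 23.6 and 38.4 CPM.

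The authors' deposited table of cell type markers names 26 of the family symbols in 8 clusters, and 25 of them had regions. Their 214 regions were higher on side 1 in 31.3%, against 40.5% of the other 767. The cluster named CD-PC held the most, 15. Gata3 led there with a natural log ratio of 1.21 in the authors' deposited table and was seen in 81% of its cells and 7% of others. Of these 15, 14 had regions, and at 7 of the 14 no region was higher on side 1: Gata2, Hoxb6, Hoxb7, Hoxb8, Hoxb9, Hoxd3os1 and Hoxd4. Hoxd3os1 and Hoxd4 had 1 region each, and 51 of all 157 member symbols had no region higher on side 1, where 29% of all autosomal symbols had none. All of the 7 but Gata2 are Hox symbols, and Hoxb6 to Hoxb9 are neighbours in cluster B. Of all Hox regions only 20.2% were higher on side 1, so the count cannot be read as a trait of this cell cluster. Gata3, Pax2, Pax8, Tbx2, Tfap2b, Hoxd8 and Hoxd9 each had at least 1 region higher on side 1. In the same table Foxi1 marked the cluster named CD-IC2 with a log ratio of 1.35, and Sox17 and Sox18 the cluster named fEC with 1.86 and 1.72. Tfap2b, whose regions were all higher on side 1, marked the clusters named DCT2, LOH and CD-PC with 0.627, 0.583 and 0.504.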

How the data were processed

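Whole-genome bisulfite sequencing of kidney was labelled as 2 wild type and 2 Gulo-/- samples. The authors' deposited table gives, per the file headers, the mean methylation level of each side as a fraction, the difference, the number of CpGs, the annotation and a score (an area statistic that no result uses). The aligner, the caller and its settings, the coverage and the depth per sample are not given in the sources used here, so precision is unknown. The only trace of a threshold is a delta of 0.01 in the name of the authors' deposited table, which is not explained there. It was no floor on the listed differences, since the smallest over all autosomal regions was 2.9e-05. The submitters' processing notes name build mm10. Of the region boundaries inside RefSeq promoter windows (GRCm38.p6, the same assembly), 1471 of 1471 starts and 1485 of 1485 ends fell on CpGs. Regions were counted with pandas 2.3.3 on Python 3.11.15, without any test, since the table holds no value per sample. Regions on the sex chromosomes (4453) were left out. Symbols that only share a prefix, such as Gatad1 and Paxip1, were left out (8 symbols, 33 regions). Weighted shares average the share higher on side 1 of all other autosomal regions over the members' mix of mean levels (5 steps) or of annotation class and CpG number. The weighting recovered known shares on simulated data in which direction depended only on the variables weighted. That checks the calculation, not whether the variables weighted here are enough.

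The deposited single-cell matrices hold raw UMI counts, per the file headers. They were summed per library over all barcodes, without filters on cells, doublets or free RNA, and used as levels, never to compare genotypes. The authors' deposited marker table gives a natural log ratio, taken as such because the submitters' processing notes name Seurat 2.3.4, the fraction of cells with the gene, and a p-value with cells as units, which was not used.

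Named regions were, per direction, the 10 with the largest difference among those with at least 5 CpGs, and per family the promoter region with the largest difference and the region with the most CpGs. To these were added the 8 genes with the most regions, the 30 kidney genes and the genes of the marker table. Promoter sequences, Hox cluster extremes and expression classes (10 CPM in every library) were chosen for display after values were seen. The members and all lists were chosen with earlier results of these data known. A few named items that these rules pick are not reported here.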

Additional observations from a re-analysis of the deposited data

How the results depend on the processing

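The table limits every value: it holds 1 level per side, no coverage, no replicate error and no genotype for a side. No paired analysis was possible because the results come from no test and the table has no values per sample, and leaving out a sample could not be done for the same reason. Of 36 alternative values 20 lay within the 95% binomial interval of the reported value, taken over regions, and 16 outside it. None turned a direction. The interval treats regions as independent, which neighbouring regions are not, and most alternatives are parts of the same set. It served only as a yardstick for a shift, and the count measures no error between samples. With at least 10 CpGs, the share of regions higher on side 1 was 21.1%, the median absolute difference 0.168, the median number of CpGs 15 and the promoter share 27.9%. With 1 region per symbol, that with the most CpGs, these were 24.2%, 0.171, 22 and 35.7%, and within 10000 bases of the start 19.2%, 0.169, 12 and 31.1%. Among differences of at least 0.2 the median difference was 0.230, which the selection itself sets, and the promoter share 5.93%. The promoter share was 9.30% without the Hox family and 14.6% without the 8 genes with the most regions, 2 alternatives chosen after seeing the data. The first 3 selections favour CpG-dense or promoter regions by their construction. Leaving out chromosome 14 gave 37.7% higher on side 1.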

Other observations

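Of the 75 regions annotated to noncoding symbols of the families, such as Sox2ot, Lhx1os and Six3os1, 36 (48.0%) were higher on side 1, against 342 of 906 (37.7%) at protein-coding symbols. These transcripts overlap or neighbour family genes, so a region named for one can lie at the other. Members that lay inside a neighbouring gene pointed both ways. Of 8 regions of Sox5os3 in Sox5, 5 were higher on side 1, of 6 Foxc1 regions in Gmds 2 were, and of 6 Foxk1 regions in Sdk1 2 were. At Irx3 the regions in Fto were 8 to 1 for side 2.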
